A study of Mus musculus with 6 samples.

Results

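C-type lectins are proteins built around a carbohydrate-recognition fold. In the aorta they occur on macrophages and dendritic cells, on endothelium, on natural killer cells and platelets, and as soluble proteins of the matrix. They were compared here between apoE-/- and wild-type mice at 32 weeks of age. The family was taken as every probe set whose single gene symbol is a Clec or Cd209 name, together with Cd69, Cd207, Klrb1b, Klrd1, Klrk1, Mgl2 and Ly75. This gave 55 of the 45101 probe sets on the array, which stand for 40 genes. Total RNA of whole aorta was hybridised to 6 single-colour arrays, 3 from apoE-/- mice on the C57BL/6J background and 3 from C57BL/6J wild-type mice. The apoE-/- mice lack apolipoprotein E in all cells and develop high plasma cholesterol and atherosclerotic plaques. The labels give genotype, age and a replicate number, but not whether a replicate was 1 mouse or a pool. The p-values therefore reflect the spread among these 6 arrays, part of which may be technical.

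The receptors of the group follow a few signalling plans. Dectin-1 (Clec7a) carries an activation motif in its own tail, whereas Dectin-2 (Clec4n), MCL (Clec4d), Mincle (Clec4e) and DCAR (Clec4b1) borrow the motif of the Fc receptor gamma chain, Fcer1g. MDL-1 (Clec5a) uses the adaptor DAP12 (Tyrobp), and both kinds of motif recruit the kinase Syk. DCIR (Clec4a2) instead carries an inhibitory motif that recruits phosphatases. On macrophages these receptors are known for binding fungal and mycobacterial glycans and products of damaged cells.

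The deposited intensities share one trimmed mean on all 6 arrays, and array medians lay between 178.0 and 195.5 intensity units. The Apoe probe set gave 239.5, 56.3 and 462.1 units in apoE-/- aorta, against 5686, 5625 and 4309 units in wild-type aorta, in keeping with the genotype on every label. The smooth muscle markers Myh11, Acta2, Cnn1 and Tagln, which define the aortic media, summed to 40537 to 51474 units in apoE-/- aorta and 43291 to 52091 units in wild-type aorta. None of these 4 passed the test, Cnn1 having the smallest p (log2 change -0.14, adjusted p = 0.474). The apoE-/- replicate 2 array read lowest of the 3 apoE-/- arrays for 360 of the 410 genes called higher in the whole table (87.8%). For most of these genes it thus stood nearest to wild type, but not for Apoe. In bulk tissue, fewer cells of a type and less RNA per cell cannot be told apart.

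Of the 40 genes, 25 had a probe set above the filter, which leaves out the lower 40% of probe sets by mean over all arrays. A gene was called where limma gave it a p under 0.05 after Benjamini-Hochberg adjustment across the 13031 genes with such a probe set. In apoE-/- aorta 5 of the 25 lectin genes rose, where 3.15% of all genes tested did. These were Clec7a, Clec4d, Clec4n, Clec4a3 and Clec4b1, all of them receptors of myeloid cells. None fell (0 at an unadjusted p under 0.05 as well), where 0.483% of all genes tested did. A gene that is high in 1 genotype can pass the filter through that genotype, so these counts are no support for a change of the family. By array, 9 of the 25 genes had groups that did not overlap with apoE-/- higher (10.9% of all genes tested), and none with apoE-/- lower (13.8%). Over all 55 probe sets 13 were higher without overlap, where 8.48% of every probe set was, and none lower, where 10.7% was. In a fit without a filter, which holds all 40 genes, 4 rose, where 1.76% of genes rose, and none fell, where 0.231% of genes fell. There the median log2 change of the 40 genes was 0.35, against -0.05 over all genes.

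Clec7a, the beta-glucan receptor Dectin-1, changed most. It read 3541, 2204 and 4440 units in apoE-/- aorta, against 433.5, 300.6 and 461.7 units in wild-type aorta. The lowest apoE-/- array lay far above the highest wild-type array. Mean intensity was 3395 ± 1125 units in apoE-/- and 398.6 ± 86.0 units in wild type (SD, n = 3 each). Values were compared as log2(intensity + 16), on which the change of a dim gene is understated. The rise was 3.01 ± 0.25 (SE), or 8.03-fold, with a 95% interval of 2.43 to 3.58 and an adjusted p = 0.00085.

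Clec4d, or MCL, a receptor for mycobacterial glycolipid that pairs with Mincle, read 755.8, 451.2 and 1132 units in apoE-/- aorta, against 196.3, 135.2 and 194.3 units in wild-type aorta. The genotypes did not overlap, and the rise was 1.98 ± 0.30 in log2 (SE, adjusted p = 0.0108). Clec4n, or Dectin-2, a receptor for fungal mannan, read 702.9, 353.0 and 748.5 units in apoE-/- aorta, against 197.5, 209.0 and 156.2 units in wild-type aorta. Its rise was 1.54 ± 0.27 in log2 (SE, adjusted p = 0.0208). A further Clec4n probe set gave 379.4, 210.7 and 406.1 units in apoE-/- aorta and 142.9, 112.8 and 88.2 units in wild-type aorta. That probe set rose by 1.38 ± 0.27 (SE, adjusted p = 0.0310) when every kept probe set was fitted by itself. In the limma fit of every probe set, without a filter, it did not pass (adjusted p = 0.0745). Both probe sets of the gene moved the same way. The probe sets that stand for Clec4d and Clec4n are of a kind (suffix _s_at) whose probes can match transcripts of more than 1 gene, so signal from close relatives cannot be told apart.

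Clec4a3, a relative of DCIR, read 767.1, 505.2 and 931.9 units in apoE-/- aorta, against 284.7, 245.9 and 189.5 units in wild-type aorta. The groups were clear of each other and the rise was 1.53 ± 0.23 in log2 (SE, adjusted p = 0.0110). Clec4b1, or DCAR, an activating receptor that signals through Fcer1g, was dimmer, with 244.6, 208.0 and 244.5 units in apoE-/- aorta and 117.7, 76.0 and 118.3 units in wild-type aorta. Its rise was 1.07 ± 0.21 (SE, adjusted p = 0.0320). The wild-type mean of Clec4b1, 104.0 units, was below that of Clec2e (105.6 units), which the filter left out. Clec4b1 thus passed the filter through its apoE-/- values, and it was not called in the limma fit without a filter (adjusted p = 0.0635). The inhibitory receptor Clec4a2 read 400.1, 324.7 and 513.8 units in apoE-/- aorta, against 239.6, 264.4 and 259.0 units in wild-type aorta. These groups did not overlap either, but the log2 change of 0.64 ± 0.18 (SE) did not pass (adjusted p = 0.102, 95% interval 0.23 to 1.05). Another probe set, which the annotation assigns to both Clec4b1 and Clec4a2, was left out of the family. It read 492.5, 341.6 and 619.3 units in apoE-/- aorta and 201.1, 175.5 and 122.0 units in wild-type aorta. It rose by 1.44 ± 0.26 in log2 (SE, adjusted p = 0.0441) in the limma fit of every probe set, where 1.11% of probe sets rose.

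**Figure D1:**
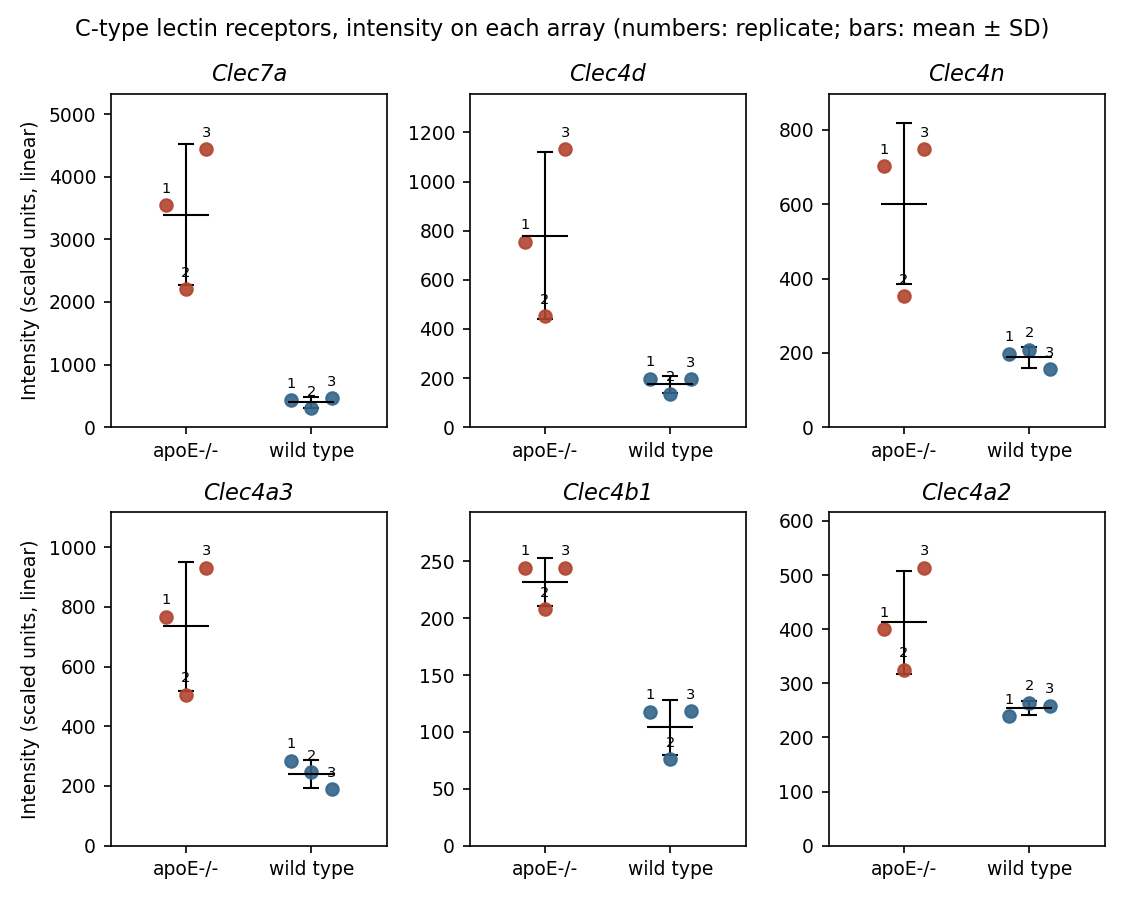
Intensity on a linear scale (vertical axis, scaled units) of 6 lectin receptor genes, with each of the 3 apoE-/- arrays on the left and each of the 3 wild-type arrays on the right of a panel, numbered by replicate. Black bars give the mean ± SD. In all 6 panels the lowest apoE-/- array lies above the highest wild-type array, and apoE-/- replicate 2 is the lowest of its group.

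The calls rest on few arrays. Clec7a was called under all 15 alternatives, with log2 changes from 2.78 to 3.29. Clec4d and Clec4a3 were not called without apoE-/- replicate 1 (adjusted p = 0.0614 and 0.0649) and were called under the 14 other alternatives. Clec4n was not called without apoE-/- replicate 1 (0.102), apoE-/- replicate 3 (0.0874), wild type replicate 1 (0.0594) or wild type replicate 3 (0.0748). Clec4b1 was called when apoE-/- replicate 2 was left out, but not when any other single array was (0.0632 to 0.134), nor without a filter (0.0635) or with the replicate number as a block (0.0587). Clec4a2 passed only when apoE-/- replicate 2 was left out (log2 change 0.80, adjusted p = 0.0397).

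Position was not used to choose the family. In the gene table, 24 of the 40 genes lie on chromosome 6 and 9 on chromosome 8. Of the genes that rose, 4 belong to the run of 9 neighbouring protein-coding genes from Clec4a1 to Clec4e on chromosome 6, called the Dectin-2 cluster. On this array 6 of the 9 had a value, in the order Clec4a3, Clec4b1, Clec4a2, Clec4n, Clec4d and Clec4e, and their log2 changes were 1.53, 1.07, 0.64, 1.54, 1.98 and -0.03. The last, Mincle, was below the filter, so its change is from the fit without a filter (adjusted p = 0.978). It read 25.4, 60.8 and 96.5 units in apoE-/- aorta, against 45.4, 48.2 and 80.6 units in wild-type aorta. A further Mincle probe set, also below the filter, read 101.8, 4.1 and 70.9 units in apoE-/- aorta, against 3.6, 7.9 and 4.4 units in wild-type aorta. Here 2 apoE-/- arrays were high and replicate 2 was at the wild-type level, and this probe set did not pass when every probe set was fitted (adjusted p = 0.351).

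Clec7a lies in another run on chromosome 6, the Dectin-1 cluster, between Clec2m and Klrk1. Its nearest neighbours that are lectins of endothelium and platelets did not pass: Clec1a had a log2 change of -0.10 (95% interval -0.49 to 0.30) and Clec1b of 0.06 (-0.80 to 0.91). On the other side of Clec7a lies Olr1, also called LOX-1, a lectin-like receptor for oxidised low-density lipoprotein, which is outside the family's rule and was named after its value was seen. Olr1 was dim and below the filter, with 231.3, 117.8 and 197.2 units in apoE-/- aorta and 30, 24.7 and 24.9 units in wild-type aorta. In the fit without a filter it rose by 2.18 ± 0.28 (SE, adjusted p = 0.0118). Klrd1 and Klrk1, receptors of natural killer cells at the end of this run, had log2 changes of 0.49 and 0.38 and did not pass.

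**Figure D2:**
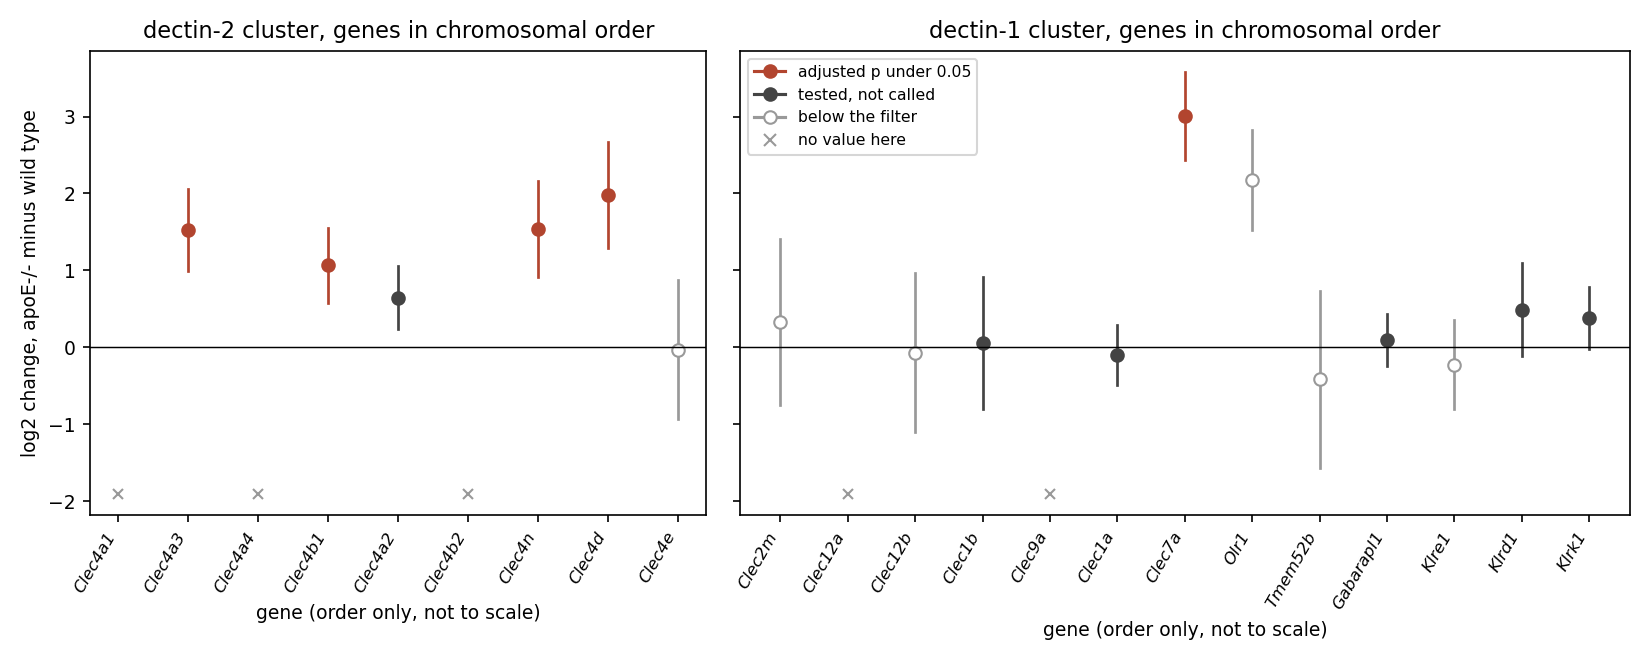
Log2 change with its 95% interval (vertical axis, apoE-/- minus wild type) for genes of the 2 lectin clusters of chromosome 6 in chromosomal order (horizontal axis, not to scale). Red points were called, dark points were tested and not called, open points were below the filter and come from the fit without one, and crosses mark genes with no value here. Clec4a3, Clec4b1, Clec4n and Clec4d stand out on the left, with log2 changes from 1.07 to 1.98, and Clec7a on the right at 3.01.

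The start regions are shown for 4 of the genes that rose, 3 of which lie in 1 run. The windows run from 250 bases before to 50 bases after the start and come from RefSeq on GRCm38.p6, in which 34 of the 40 genes have 1 or more windows. Capitals mark GAGGAA or its reverse complement TTCCTC, the core of sites bound by PU.1, a transcription factor of myeloid cells. Clec4a2, a neighbour that was not called though its groups did not overlap (log2 change 0.64), is given for comparison, and Clec4n is named only. Strands are minus for Clec7a and plus for the others.
Clec7a, chr6:129472730-129473029: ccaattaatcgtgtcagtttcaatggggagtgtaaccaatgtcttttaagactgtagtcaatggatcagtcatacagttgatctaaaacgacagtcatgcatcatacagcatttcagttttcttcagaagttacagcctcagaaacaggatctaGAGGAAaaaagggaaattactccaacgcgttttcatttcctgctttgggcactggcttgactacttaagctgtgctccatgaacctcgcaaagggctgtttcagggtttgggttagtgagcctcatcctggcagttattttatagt
Clec4d, chr6:123261857-123262156: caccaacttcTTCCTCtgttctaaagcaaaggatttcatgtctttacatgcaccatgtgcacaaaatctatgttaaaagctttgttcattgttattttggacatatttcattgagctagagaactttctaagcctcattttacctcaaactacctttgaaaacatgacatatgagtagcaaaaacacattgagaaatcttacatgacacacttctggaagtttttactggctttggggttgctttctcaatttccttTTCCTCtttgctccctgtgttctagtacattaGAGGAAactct
Clec4b1, chr6:123049712-123050011: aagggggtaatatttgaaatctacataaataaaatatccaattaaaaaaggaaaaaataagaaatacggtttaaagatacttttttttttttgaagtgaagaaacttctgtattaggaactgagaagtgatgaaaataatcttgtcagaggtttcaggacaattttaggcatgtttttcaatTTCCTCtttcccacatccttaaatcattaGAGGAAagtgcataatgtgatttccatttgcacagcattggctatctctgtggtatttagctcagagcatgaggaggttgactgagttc
Clec4a3, chr6:122952394-122952693: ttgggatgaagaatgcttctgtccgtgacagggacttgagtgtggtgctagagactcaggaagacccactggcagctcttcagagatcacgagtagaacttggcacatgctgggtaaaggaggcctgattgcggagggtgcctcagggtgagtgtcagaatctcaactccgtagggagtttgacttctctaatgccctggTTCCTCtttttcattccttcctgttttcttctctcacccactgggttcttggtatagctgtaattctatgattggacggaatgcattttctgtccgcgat
Clec4a2, chr6:123122440-123122739: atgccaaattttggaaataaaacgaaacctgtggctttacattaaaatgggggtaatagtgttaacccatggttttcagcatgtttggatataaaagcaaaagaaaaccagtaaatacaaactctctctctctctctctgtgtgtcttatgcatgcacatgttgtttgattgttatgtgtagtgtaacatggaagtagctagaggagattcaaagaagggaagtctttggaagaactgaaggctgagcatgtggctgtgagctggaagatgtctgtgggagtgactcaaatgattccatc

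The motif occurred 1 time in the Clec7a window, 3 times in that of Clec4d and 2 times in that of Clec4b1. For Clec4a3, RefSeq lists 2 starts, and the motif occurred in the window printed and not in the other. The Clec4a2 window held none, and whether the motif goes with a rise was not tested. On both strands GAGGAA was found in 28.3% of all 32851 windows and in 18 of the 38 windows of the family's genes (47.4%). Of the other motifs searched on both strands, TGANTCA, bound by AP-1, was in 7.81% of all windows and in 9 of the family's 38. TTGCNNAA, bound by C/EBP factors, was in 10.8% and in 8 of 38. The interferon-stimulated response element was in 3.44% and in 3 of 38, those of Clec4d and Clec4b1 among them. Windows of one gene and of related neighbouring genes resemble each other, and a match of letters shows no binding.

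Signalling genes downstream of these receptors were read from a list of 40 genes. It holds adaptors and kinases, and also phosphatases, transcription factors, caspases and cytokines. Of the 33 above the filter, 8 rose and none fell, where 3.15% and 0.483% of all genes tested did. Positive changes numbered 29, where 5356 of the 13031 genes had one. The list had a median of 0.34 in log2, where the whole table had -0.05. It was chosen with earlier results of these data known, and the filter bears on it as on the family. These counts are thus no support for a change of the list, and without a filter 5 of its genes rose. Tyrobp, the adaptor DAP12, read 5367, 3479 and 6975 units in apoE-/- aorta, against 1141, 894.5 and 875.8 units in wild-type aorta, a rise of 2.38 ± 0.23 in log2 (SE, adjusted p = 0.00144). Fcer1g, the partner of Dectin-2, MCL and DCAR, read 2518, 1858 and 4059 units in apoE-/- aorta, against 727.8, 594.4 and 759.4 units in wild-type aorta, a rise of 1.93 ± 0.25 (SE, adjusted p = 0.00514). On both, every apoE-/- array lay above every wild-type array.

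The linkers Blnk and Lcp2, which join Syk to phospholipase C, rose by 2.33 ± 0.23 and 1.24 ± 0.26 in log2 (SE, adjusted p = 0.00167 and 0.0361). The other rises, named after their values were seen, were those of the inflammasome adaptor Pycard (1.22), Syk itself (1.18), the kinase Btk (1.16) and the Src-family kinase Fgr (1.10). Pycard, Btk and Fgr had adjusted p = 0.0244, 0.0439 and 0.0392. Syk read 785.1, 787.8 and 1119 units in apoE-/- aorta, against 521.8, 290.2 and 366.8 units in wild-type aorta (adjusted p = 0.0255). Further genes that did not pass were also named after their values were seen. Bcl10 and Malt1, which form a complex with Card9, had log2 changes of 0.34 (adjusted p = 0.249) and 0.16 (adjusted p = 0.670). The NF-kappa-B subunit Rela had 0.01 (adjusted p = 0.965). Groups overlapped for Plcg2 (0.32), Prkcd (0.07), Vav1 (0.15), Vav3 (0.01) and Src (-0.29), among others. They did not overlap, with apoE-/- higher, for 14 of the 33 genes, where 10.9% of all genes tested were so. Of these, the genes not called were Casp1 (0.81, adjusted p = 0.0618), Casp8 (0.42, 0.0696), Egr2 (0.77, 0.172), Hcst (0.80, 0.119), Pik3ap1 (0.64, 0.0555) and Inpp5d. How the calls divide by signalling step was not tested. The inhibitory phosphatases gave 0.80 ± 0.21 for Inpp5d (SE, adjusted p = 0.0791) and 0.27 ± 0.23 for Ptpn6 (SE, adjusted p = 0.588). Card9 was not analysed here. The list had 3 calls when apoE-/- replicate 1, apoE-/- replicate 3 or wild type replicate 2 was left out, and 4 when wild type replicate 3 was. Lcp2 lost its call under 8 alternatives. In each fit with 3 calls these were Tyrobp, Blnk and Fcer1g, so Syk, Pycard, Btk and Fgr were not called there.

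Macrophage markers moved with these receptors. Of 6 markers tested, 4 rose, where 3.15% of all genes did. In all 6 the groups did not overlap, with apoE-/- higher, where 10.9% of all genes were so. The markers summed to 23219 to 32108 units in apoE-/- aorta and 12568 to 13954 units in wild-type aorta, and no array read under 164.6 units for Fcgr1, the dimmest of those that rose. Cd68 rose by 2.87 ± 0.25 in log2, Fcgr1 by 1.73 ± 0.19, Lyz2 by 1.45 ± 0.13 and Adgre1 (F4/80) by 0.99 ± 0.13 (SE). The markers that did not pass, named after their values were seen, were Csf1r (0.50, adjusted p = 0.0999) and Mertk (0.12, adjusted p = 0.498). Relative to the wild-type mean, Clec7a was higher by 3.12, 2.44 and 3.45 in log2 on apoE-/- replicates 1, 2 and 3, and Cd68 by 2.98, 2.25 and 3.39. Clec4d was higher by 2.03, 1.31 and 2.60 on the same arrays, and Clec4n by 1.83, 0.87 and 1.92. Replicate 2 was the lowest apoE-/- array for all 5 called lectins and all 6 macrophage markers. It was also the lowest for 87.8% of all genes called higher in the whole table, so this order is not particular to them. Both monocyte markers tested, Ccr2 and Plac8, rose as well, by 1.86 ± 0.20 and 0.93 ± 0.17 (SE). Ccr2 lost its call with the median of its probe sets (0.82, adjusted p = 0.103). Plac8 lost its call with the replicate block (adjusted p = 0.0537) and without apoE-/- replicate 1, apoE-/- replicate 3 or wild type replicate 3 (0.0568 to 0.0941). How far the number of macrophages sets the lectin changes was not tested.

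**Figure D3:**
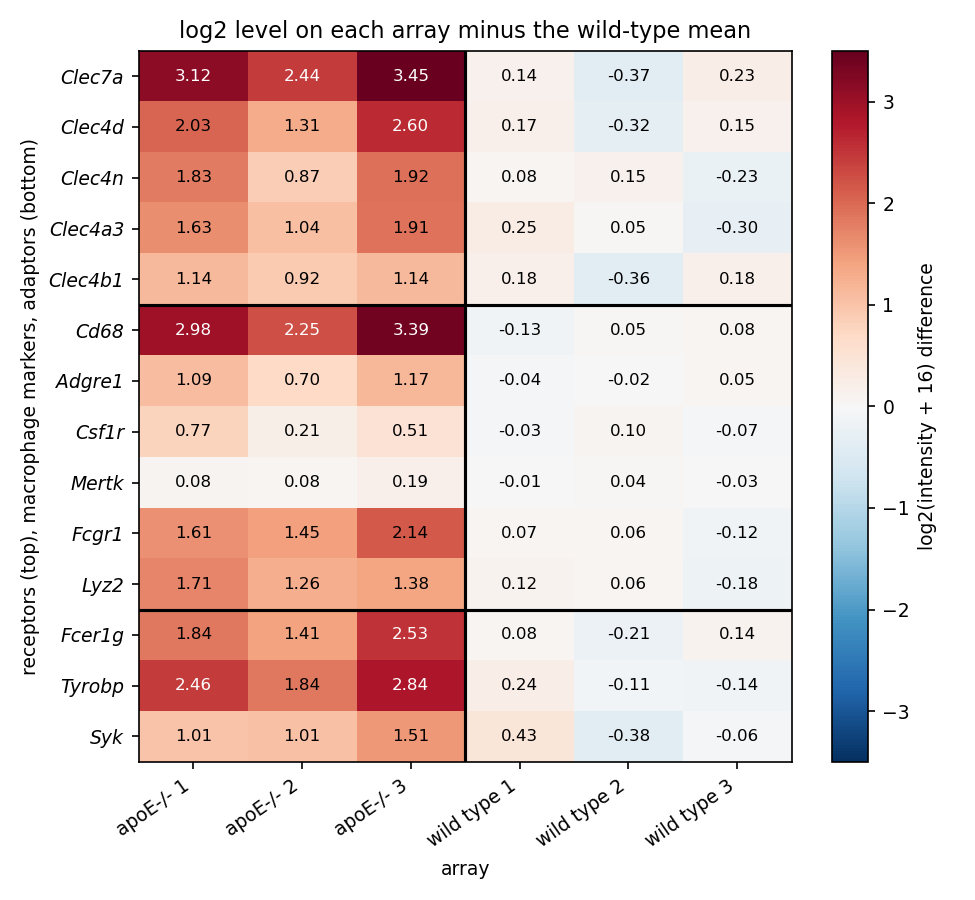
Log2(intensity + 16) on each array minus the mean of the 3 wild-type arrays, with the 3 apoE-/- arrays in the left columns and the 3 wild-type arrays in the right columns. Rows are the 5 called lectin receptors, 6 macrophage markers and 3 signalling genes, split by lines. The receptors are higher on all apoE-/- arrays, by 0.87 for Clec4n to 3.45 for Clec7a, and lowest on replicate 2, while Mertk stays within 0.19.

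The other members known from macrophages and dendritic cells that were above the filter did not pass. Clec10a and Mgl2, the galactose-binding receptors CD301a and CD301b of tissue macrophages and dendritic cells, had log2 changes of 0.41 (95% interval -0.08 to 0.91) and 0.25 (-0.02 to 0.52). Mgl2 read 501.0, 560.7 and 532.5 units in apoE-/- aorta, against 471.2, 414.4 and 444.7 units in wild-type aorta. Its groups did not overlap, but the shift was small. Of the 7 Cd209 genes, mouse relatives of human DC-SIGN, 6 were above the filter and none was called, with log2 changes from -0.19 (Cd209c) to 0.65 (Cd209a). Cd209a read 174.6, 313.3 and 390.0 units in apoE-/- aorta, against 176.6, 159.4 and 180.8 units in wild-type aorta. The apoE-/- replicate 1 array, which was high for Clec7a, lay among the wild-type arrays for Cd209a, and the change did not pass (adjusted p = 0.249). Cd209f read 846.0, 974.4 and 907.6 units in apoE-/- aorta, against 990.8, 873.6 and 1127 units in wild-type aorta, with a log2 change of -0.13 (95% interval -0.40 to 0.15). Cd209d (0.01), Cd209b (0.02) and Cd209g (0.15) lay near 0, and Ly75, the endocytic receptor DEC-205, had -0.18 (-0.60 to 0.23). Beside these, none of 5 dendritic cell markers tested was called (smallest p for Batf3, log2 change 0.56, adjusted p = 0.333), and their sums overlapped, at 1083 to 1364 units in apoE-/- aorta and 1192 to 1276 units in wild-type aorta.

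The family's members known from endothelium, Clec14a and Clec1a, did not pass. Clec14a, a membrane protein of endothelium that binds matrix, read 1026, 1156 and 1093 units in apoE-/- aorta, against 926.7, 607.8 and 811.0 units in wild-type aorta. The groups were separate, but the log2 change of 0.49 ± 0.15 (SE) did not pass (adjusted p = 0.138), and on its other probe set the groups overlapped. Of 6 endothelial markers, 1, Emcn, rose (0.76 ± 0.16, SE, adjusted p = 0.0386), where 3.15% of all genes did. It lost its call under 8 alternatives, among them quantile normalization (0.0517) and the replicate block (0.109), and without apoE-/- replicate 1, apoE-/- replicate 3, wild type replicate 1 or wild type replicate 3 (0.108 to 0.158). The list summed to 7464 to 9761 units in apoE-/- aorta and 5901 to 8293 units in wild-type aorta. Clec1a, a receptor on endothelium and myeloid cells, read 233.8, 204.3 and 196.5 units in apoE-/- aorta and 204.0, 213.1 and 267.8 units in wild-type aorta, an overlapping range.

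Clec1b, the platelet receptor CLEC-2, read 436.2, 381.1 and 417.8 units in apoE-/- aorta, against 818.2, 241.2 and 305.9 units in wild-type aorta. The wild type replicate 1 array stood far above all others. On that array the platelet genes Ppbp and Gp9, named after their values were seen, were high too, at 3891 and 322.1 units, against 1280 to 1700 and 122.3 to 184.4 units on the other wild-type arrays. Itga2b read 832.0 units there, against 578.2 and 571.1 units. Pf4 stood out less, at 4377 units there, 3519 and 3198 units on the other wild-type arrays and 4133 units on apoE-/- replicate 1. The 4 platelet markers tested summed to 5408 to 6416 units in apoE-/- aorta and 5500 to 9423 units in wild-type aorta, and none was called (smallest p for Itga2b, log2 change -0.51, adjusted p = 0.264). The part of platelet RNA in the Clec1b reading was not tested. The ligand of Clec1b, podoplanin (Pdpn), read 2146, 1441 and 2733 units in apoE-/- aorta, against 1273, 1487 and 1157 units in wild-type aorta. Its change of 0.64 ± 0.21 in log2 (SE) did not pass (adjusted p = 0.155), though it did without apoE-/- replicate 2 (0.89, adjusted p = 0.0145).

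The soluble lectins of the matrix were bright on this array and did not pass. Clec3b, or tetranectin, a plasminogen-binding protein, read 1455, 1555 and 1275 units in apoE-/- aorta, against 1710, 1482 and 1605 units in wild-type aorta, with a log2 change of -0.16 (95% interval -0.41 to 0.08). Clec11a, a secreted growth factor of bone progenitors, read 1167, 1099 and 1130 units in apoE-/- aorta, against 1381, 1088 and 1372 units in wild-type aorta, with a log2 change of -0.17 (-0.43 to 0.09). For both, the intervals hold no change of 2-fold in either direction.

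**Figure D4:**
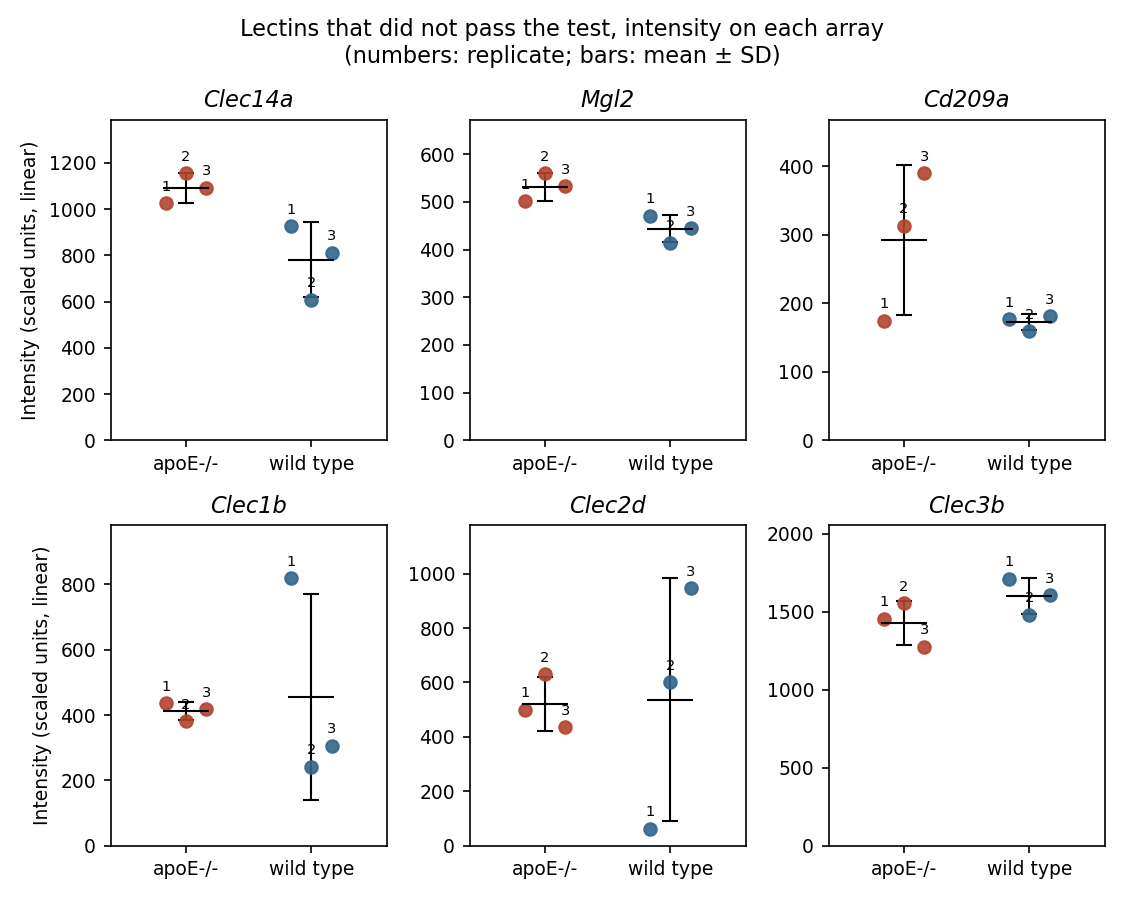
Intensity on a linear scale (vertical axis, scaled units) of 6 lectin genes that were not called, with apoE-/- arrays on the left and wild-type arrays on the right of each panel, numbered by replicate, and black bars for the mean ± SD. Clec14a and Mgl2 separate the genotypes by a small margin, Cd209a is high on 2 of 3 apoE-/- arrays, and single wild-type arrays set the spread of Clec1b and Clec2d.

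Lectins of natural killer and other lymphoid cells were dim or scattered. Klrk1, the activating receptor NKG2D, read 188.4, 247.0 and 237.3 units in apoE-/- aorta, against 168.1, 179.2 and 154.2 units in wild-type aorta. Its groups did not overlap, and the change of 0.38 ± 0.18 in log2 (SE) did not pass (adjusted p = 0.292). Klrd1, or CD94, overlapped, with 177.6, 217.4 and 337.0 units in apoE-/- aorta and 214.1, 134.1 and 150.2 units in wild-type aorta. None of 3 natural killer markers tested was called (smallest p for Nkg7, log2 change 0.55, adjusted p = 0.390), with sums of 530.5 to 721.8 units in apoE-/- aorta and 476.3 to 695.8 units in wild-type aorta. Clec2d, the ligand Clr-b of the inhibitory receptor Klrb1b, read 498.9, 630.1 and 434.6 units in apoE-/- aorta, against 61.7, 600.6 and 946.7 units in wild-type aorta. The wild type replicate 1 array lay far under the other 5, so the interval of its log2 change, -1.20 to 2.34, is wide. Clec2h had a change of 0.14, and Clec16a, a regulator of autophagy that carries the family name, of 0.53 with overlapping groups.

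The 15 genes below the filter are not shown to be above background, and none passed in the fit without a filter (smallest adjusted p = 0.144). Clec5a, the DAP12-coupled receptor MDL-1, read 160.8, 130.1 and 240.8 units in apoE-/- aorta, against 67.0, 102.3 and 60.7 units in wild-type aorta. The groups did not overlap, and its log2 change was 1.05 (95% interval 0.37 to 1.72). Clec4f, known in mouse as a lectin of Kupffer cells, read 91.1, 73.5 and 72.0 units in apoE-/- aorta, against 40, 36.9 and 8.0 units in wild-type aorta, a change of 1.19 (0.37 to 2.0) with separate groups. Clec18a also had separate groups, at 0.48. The 12 others were Cd209e, Cd69, Clec4g, Klrb1b, Clec2m, Clec2i, Clec2e, Clec4e, Clec2l, Clec12b, Cd207 and Clec2g, with changes from 0.60 for Cd209e to -0.22 for Clec2g and overlapping groups. Among them are the activation marker Cd69 (0.55, 95% interval -0.26 to 1.36) and langerin, Cd207 (-0.20, -1.30 to 0.89). Over all 40 genes the groups did not overlap in 12, each of them higher in apoE-/- aorta, where 9.26% of genes without a filter did so, and none was separately lower, where 12.5% of genes did so.

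**Figure D5:**
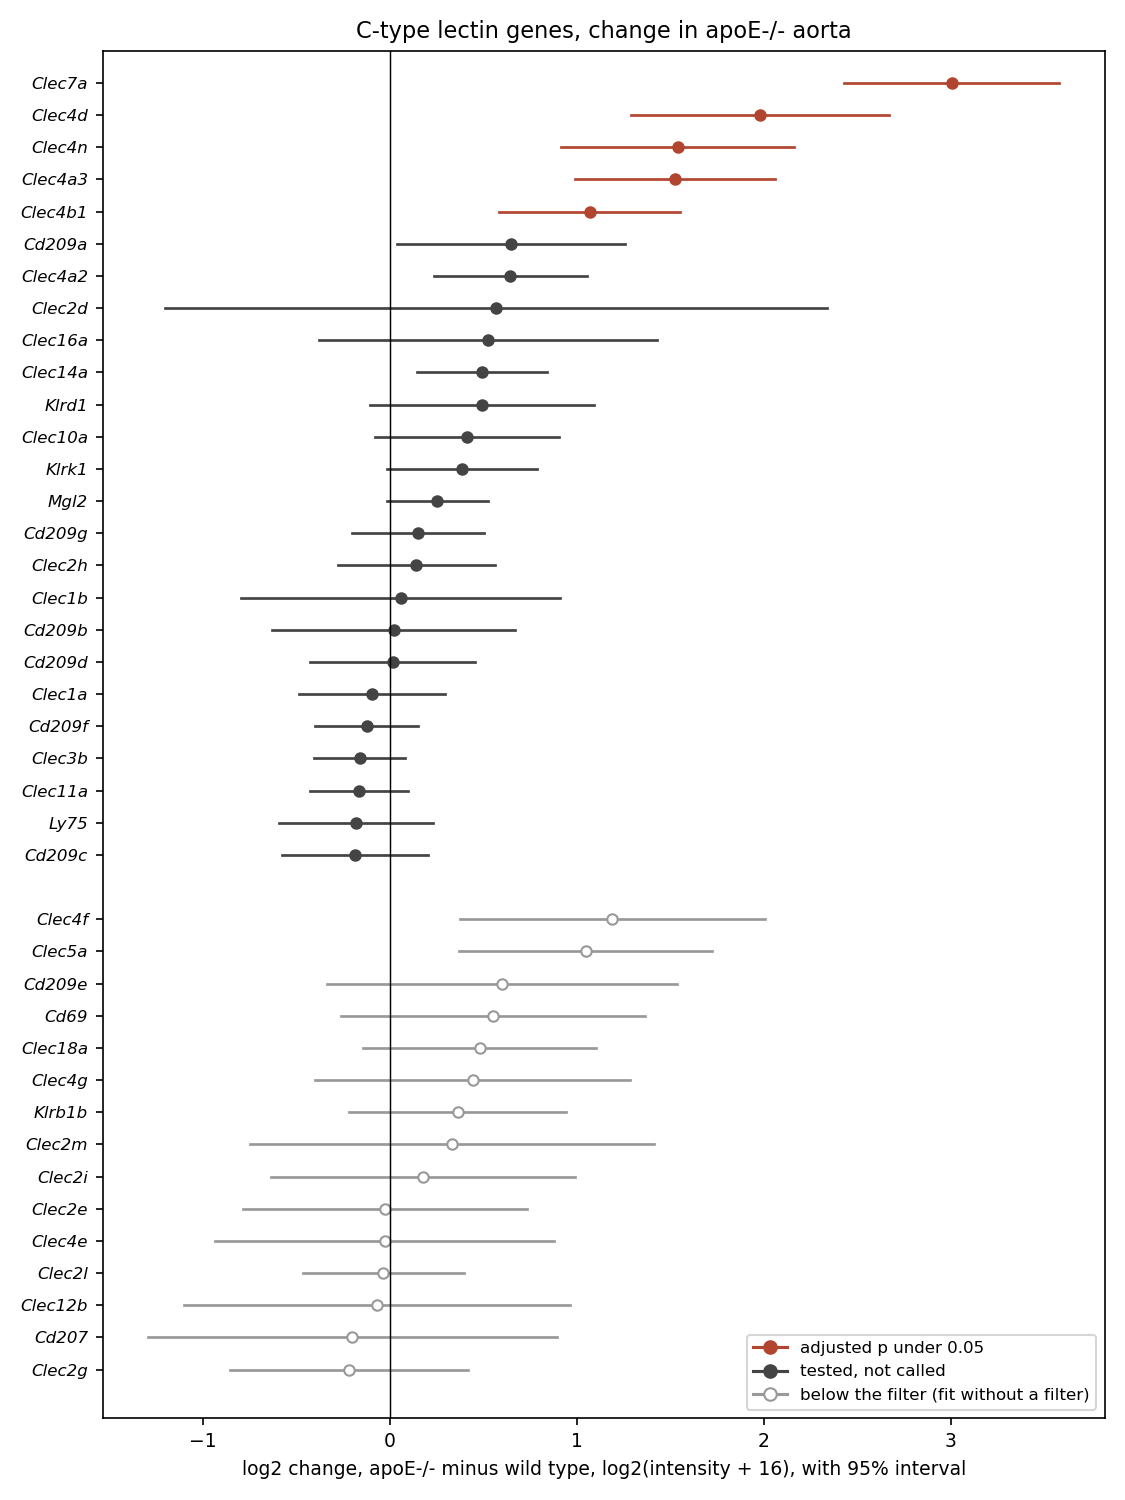
Log2 change with its 95% interval (horizontal axis, apoE-/- minus wild type, on the log2(intensity + 16) scale) of all 40 lectin genes. Red marks the 5 called genes, dark points the 20 tested and not called, and open points the 15 below the filter, from the fit without one. The called genes lie between 1.07 and 3.01, and the 20 others tested between -0.19 and 0.65.

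Lectin-domain genes outside the family's rule were read from a list of 37, of which 20 were above the filter. Of these 4 rose and none fell, where 3.15% and 0.483% of all genes tested did. Their median was 0.20 in log2, where the whole table had -0.05. As for the signalling list, these counts are no support for a change of the list. Selp, P-selectin of platelets and activated endothelium, read 1989, 1602 and 2078 units in apoE-/- aorta, against 1069, 1049 and 777.3 units in wild-type aorta, a rise of 0.96 ± 0.15 in log2 (SE, adjusted p = 0.0121). Cd93, of endothelium and myeloid cells, rose by 0.81 ± 0.13 (SE, adjusted p = 0.0128), though its call was lost when the median of its probe sets was used (0.39, adjusted p = 0.0743). Selp and Cd93 were not called without apoE-/- replicate 1 (both 0.0686) or apoE-/- replicate 3 (0.0600 and 0.0636), nor Cd93 without wild type replicate 3 (0.0568). Mrc1, the mannose receptor of macrophages, read 3330, 2645 and 3623 units in apoE-/- aorta, against 2034, 1763 and 2042 units in wild-type aorta, a rise of 0.70 ± 0.13 (SE, adjusted p = 0.0224). Its call was lost without an intensity trend (0.0590) and when any array other than apoE-/- replicate 2 was left out (0.0598 to 0.103). The remaining rise was that of Cd72, with 1194, 722.0 and 1321 units in apoE-/- aorta and 122.4, 105.4 and 100.4 units in wild-type aorta (3.08 ± 0.22, SE, adjusted p = 0.00047). Leaving out apoE-/- replicate 1 left 1 call in the list, and leaving out apoE-/- replicate 3 or wild type replicate 3 left 2.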

How the data were processed

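Total RNA of whole aorta from 3 apoE-/- and 3 wild-type mice or pools was measured on single-colour arrays. The authors deposited 1 intensity per probe set and array on a linear scale; the trimmed mean came out at 500.002 on each of the 6 arrays, a scaling already present in the deposited values. The software is not given in the sources used here. Gene symbols came from the platform annotation, in which 34958 probe sets carry 1 symbol, updated through the GRCm38.p6 gene table, where 34754 were found.

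Intensities were taken to log2(intensity + 16). The 64 control probe sets and the lower 40% of the rest by mean log2 value (18015) were left out, and each gene was represented by its brightest kept probe set, giving 13031 genes. The fit used limma 3.58.1 under R 4.3.3, with genotype as the only term and variances moderated along a trend on intensity, with Benjamini-Hochberg adjustment over all genes tested. An exact two-sided permutation test on 3 and 3 arrays has a smallest p of 0.1, so none is given. The number of arrays limits the precision.

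The family, gene lists and tests were chosen with earlier results of these data known. Every member is accounted for. Of each other list the text names up to 4 called genes by size of change, or the one with the smallest p, and says where a gene falls outside this. Alternatives were log offsets of 1 and 64, quantile normalization, no filter, a 60% filter, no trend, the median over probe sets of a gene, every kept probe set fitted, a replicate block, and leaving out each array in turn. Some genes of the lists were not analysed here. T cell, B cell, neutrophil, lymphatic, skeletal muscle and adipocyte markers were read as well: none of 2, 3, 3, 3 and 3 tested T cell, B cell, neutrophil, lymphatic and adipocyte markers was called. The smallest p-values among them were those of Cd8a (log2 change -0.25), Pax5 (0.49), Mpo (0.20), Pdpn (0.64) and Cidea (-0.60). Of 3 skeletal muscle markers Ckm was lower (-0.71, adjusted p = 0.0218), a call lost with the replicate block (0.0834), with the median of its probe sets (-1.65, adjusted p = 0.136) and when any array other than apoE-/- replicate 2 was left out (0.0676 to 0.0862). Wild type replicate 3 stood apart for muscle genes, named after their values were seen: Acta1 read 89.3 to 151.5 units in apoE-/- aorta, against 229.5, 329.3 and 6440.0 units in wild-type aorta.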

Additional observations from a re-analysis of the deposited data

How the results depend on the processing

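The count of C-type lectin genes called higher, 5, was 4 or 5 under the 9 alternatives that kept all arrays, and 1 to 6 when single arrays were left out. None was called lower under any of the 15. The signalling list, with 8 called, had 5 without a filter and 4 without an intensity trend, and 3 to 11 with an array left out. The other lectin-domain genes, with 4 called, had 3 to 6 under the 9 alternatives that kept all arrays, and 1 to 5 with an array left out. The 6 came from the fit without a filter. The cause of the lost calls was not tested.

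Deviations from the group means had r = -0.104, -0.181 and -0.0519 between same-numbered arrays of the 2 genotypes, and -0.143 to 0.212 between the other pairs. With 3 arrays per genotype these values cannot show whether arrays were paired or shared a batch. The labels do not say what the number stands for. With the replicate block, 4 lectin genes, without Clec4b1 (adjusted p = 0.0587), were called, and 301 of all genes in place of 473. Over the other alternatives all genes called numbered 155 (without apoE-/- replicate 1) to 701 (without apoE-/- replicate 2), with 309 without a trend, 201 without apoE-/- replicate 3, and 260, 303 and 225 without wild type replicates 1, 2 and 3. With every kept probe set fitted, 736 of 27022 probe sets were called.

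Among the 25 lectin genes above the filter, signs changed only for 6 that were not called. The 15 genes below it were not followed through the alternatives. With single arrays left out, Clec2d ran from -0.54 to 1.28, Clec2h from -0.0054 to 0.23, Clec1b from -0.28 to 0.57, Cd209b from -0.18 to 0.32, Cd209d from -0.17 to 0.17 and Clec1a from -0.17 to 0.016. Clec1b was at -0.28 without wild type replicate 2 and -0.12 without wild type replicate 3. Cd209b was at -0.08, -0.18 and -0.11 without apoE-/- replicate 2, apoE-/- replicate 3 and wild type replicate 3. Cd209d was at -0.0027 after quantile normalization, and at -0.01, -0.05 and -0.17 without apoE-/- replicate 2, apoE-/- replicate 3 and wild type replicate 2. Clec1a was at 0.041 with the median of its probe sets. Probe sets under about the lower 40% have unknown distance from background, which limits the 15 dim genes most.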

Other observations

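Of the 40 lectin genes, 11 had several probe sets. For Klrb1b, the inhibitory receptor of natural killer cells that binds Clec2d, all 5 probe sets lay below the filter and the genotypes overlapped on each. The 2 probe sets of Clec14a gave log2 changes of 0.49 and 0.39, and those of Clec1a gave -0.10 and 0.18. For Clec4a2 the brighter probe set gave 0.64 and the dimmer, with 43.0, 27.5 and 51.0 units in apoE-/- aorta and 47.2, 32.0 and 65.2 units in wild-type aorta, gave -0.17. Clec10a and Mgl2 had apoE-/- replicate 2 as their brightest array (871.6 and 560.7 units). For Clec7a that array was the dimmest of the apoE-/- arrays. Replicate 2 was also the brightest array for Clec14a (1156 units), Klrk1 (247.0 units) and Clec16a (302.3 units), so this order is not particular to Clec10a and Mgl2.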
